A study of Mus musculus with 6 samples.

Results

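Mavs lies on mouse chromosome 2, and the genes described here are its neighbours on that chromosome. They are the 170 protein-coding genes of a 26519-row count table whose start in mm10 falls within 15 Mb of the start of Mavs and whose mean over the 6 libraries was at least 1 CPM, the count scaled to the total of its library. The window holds 268 protein-coding rows at any level. Of these, 180 reached 1 CPM, and 10 of the 180 were left out by name: Mavs itself, Il1a, Il1b, B2m, Gatm, Sirpa, Thbs1 and Siglec1 where they reached that level, and genes whose symbol starts with Nduf. The members were chosen by position and selected on their mean level over all libraries. The difference between the groups was no part of the rule, although the window was proposed with earlier results of these data known.

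The libraries were made from dendritic cells isolated from MC38 tumours, a mouse colon carcinoma line, on day 10 after inoculation. Of the libraries, 3 are labelled WT and 3 are labelled MAVS KO; no other allele or treatment is named, and the tumour cells were the same in both groups. Whether the libraries are of different animals is not in the labels, and the p-values cover only the spread among the libraries, which may be technical. The strain of the hosts, the part of Mavs that was altered, any backcrossing and the gate used to isolate the cells are not stated in the labels.

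MAVS is a mitochondrial membrane protein that relays the signal of the cytosolic RNA sensors RIG-I and MDA5 towards type I interferon. A targeted allele is passed on together with the stretch of chromosome around it until recombination separates them, so genes close to a targeted gene can carry other sequence variants in knockout hosts than in wild-type hosts of another background. Such variants can alter a gene's level in cis, and can also alter how many reads align to it. In these libraries an effect of MAVS loss and an effect of the inherited chromosome segment cannot be told apart for any gene of the window.

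The targeted gene came first as a check of the labels. Mavs (chr2:131234063-131248025, plus strand) had 33.9, 39.7 and 39.7 CPM in the wild-type libraries and 8.99, 12.8 and 9.45 CPM in the knockout libraries. All 3 knockout libraries were lower than all 3 wild-type libraries (log2 fold change -1.86 with SE 0.18, edgeR adjusted p = 0.00170). Library totals were 14466640 to 20851733 counts. The 10 dendritic cell markers summed to between 30279 and 37260 CPM across wild-type and between 33645 and 43592 CPM across knockout libraries. Cd74 and H2-Ab1, genes of MHC class II that macrophages also express, made up between 97.2% and 98.1% of that sum in each library. The other 8 summed to 717 to 1049 and 763 to 848 CPM. Flt3, a growth factor receptor of dendritic cells, had 42.4, 34.1 and 73.3 CPM in wild-type and 10.8, 10.9 and 15.5 CPM in knockout libraries. The sum of 8 macrophage and monocyte markers was of similar size. It lay between 24777 and 29546 CPM across wild-type and between 25969 and 33838 CPM across knockout libraries. Most of it was Lyz2, with 23584, 22317 and 19007 CPM in wild-type and 19241, 27284 and 19789 CPM in knockout libraries. C1qb, another of these markers, had 1904 to 2416 and 2498 to 2890 CPM. That is above the sum of the dendritic cell markers without Cd74 and H2-Ab1. T cell markers summed to 7.05 to 9.26 and 4.44 to 11.6 CPM, and B cell markers to 3.04 to 6.95 and 1.01 to 1.76 CPM. Neutrophil markers summed to 22.3 to 30.1 and 31.2 to 33.0 CPM, fibroblast markers to 8.11 to 11.7 and 4.83 to 19.2 CPM, and endothelial markers to 24.1 to 44.3 and 39.3 to 71.8 CPM. Of these lists only the dendritic cell list held called genes, 4 of 10, all lower in knockout libraries: Zbtb46, Cd209a, Flt3 and Xcr1. Without a call, Itgax, Cd74, Irf8 and H2-Ab1 had log2 fold changes of 0.25, 0.24, 0.21 and 0.03. Clec9a and Batf3, also without a call, had -0.07 and -0.65, so the list did not fall as a whole. The part of these differences in the values of the members was not tested. In such bulk samples fewer cells of a type and less RNA per cell cannot be told apart.

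Of the 170 genes, all were tested, and 17 (10%) passed an adjusted p of 0.05 in edgeR's quasi-likelihood test, in which p-values were adjusted over all 12580 genes tested. Over all of those genes 2.81% passed. Of the 165 members with a mean of at least 1 CPM in each group, 15 passed (9.09%), 8 higher and 7 lower; this count was added after the data were seen. Of the members, 8 were higher in knockout libraries (against 1.76% of all genes tested) and 9 were lower (against 1.05%). Of protein-coding genes of at least 1 CPM outside the window, 20 of 669 (2.99%) on the rest of chromosome 2 and 293 of 9911 (2.96%) on other chromosomes passed. The difference in these shares was not tested. Directions are relative to TMM scaling: with library size alone the median log2 fold change of all genes moved to -0.17, and the members called were 4 higher and 15 lower. A difference of at least 2-fold together with the adjusted p was met by 8 members, 2 higher and 6 lower, against 1.18% of all genes. Spint1 and Plcb4, among these 8, reached 1 CPM through the wild-type libraries alone and had to differ to be members. With or without a call, 14 members (8.24%) differed by at least 1 on the log2 scale, against 6.18% of all genes. Over protein-coding genes of at least 1 CPM, the closer comparison, that share was 4.21%. Spint1, Plcb4, Gpr176 and Ovol2, among the 14, reached 1 CPM through 1 group alone, so a difference was built in for them. The CPM of the groups did not overlap for 57 members (33.5%, against 21.8% of all genes), and 56 had an unadjusted p below 0.05 (32.9%, against 16.0%). Over protein-coding genes of at least 1 CPM these shares were 22.9% and 17.4%.

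The members did not lean in 1 direction. Log2 fold changes (knockout minus wild-type) were negative for 84 and positive for 86, where 50.4% of all genes tested were negative. The median was 0.0021, against -0.0022 over all genes tested. Their sizes were larger: the median absolute log2 fold change was 0.30, against 0.23 over all genes and 0.20 over protein-coding genes of at least 1 CPM. The spread between libraries of a group was close to that of other genes, with a median coefficient of variation of 16.04% in wild-type and 13.8% in knockout libraries, against 17.2% and 15.03% over all genes tested. Mean levels ran from 1.20 to 1195 CPM with a median of 18.5 CPM. Per kilobase of exon they ran from 0.149 to 381 CPM, with a median of 4.34.

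**Figure D1:**
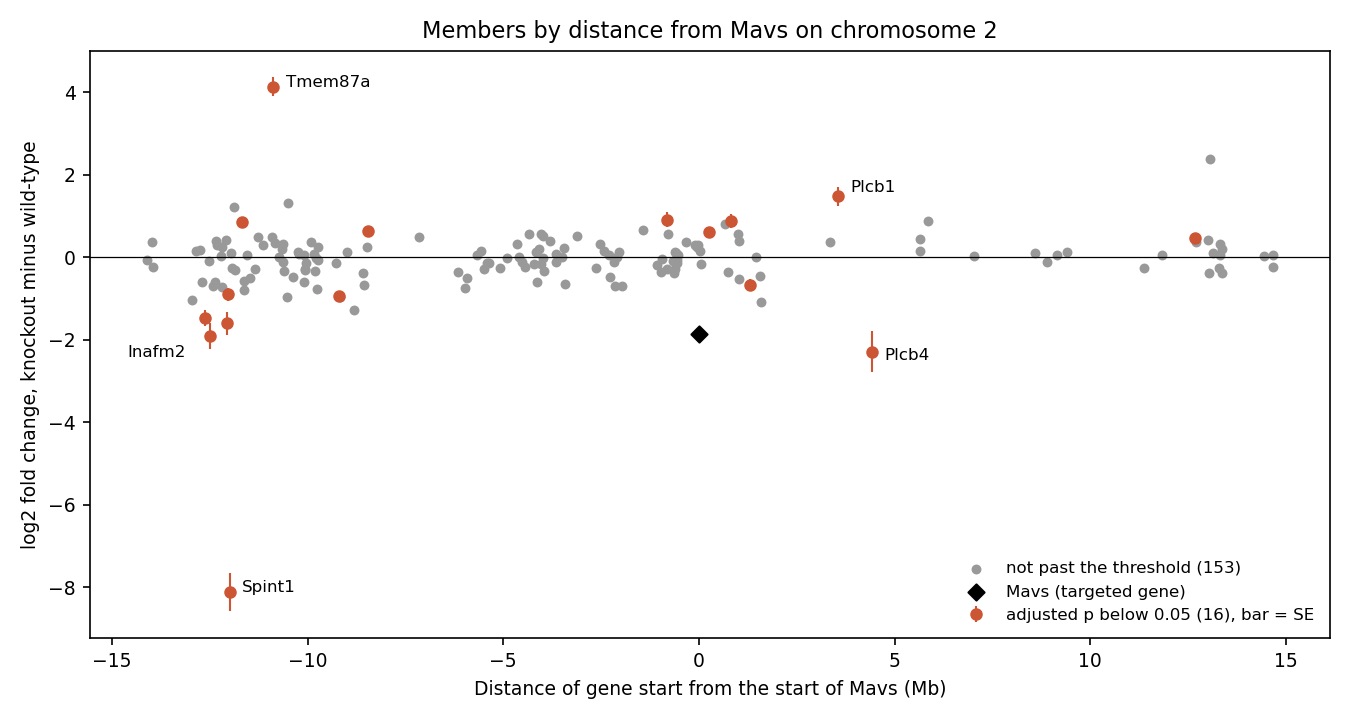
Log2 fold change (knockout minus wild-type, vertical axis) of members, 1 left out, against the distance of their starts from the start of Mavs in Mb (horizontal axis), with members past the threshold in red with SE bars, other members in grey and Mavs as a black diamond. Spint1 at -8.12 and Tmem87a at 4.13 stand furthest from 0, both more than 10 Mb before Mavs.

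Counted along the chromosome, the 5 Mb furthest before Mavs held 8 of 52 members called (15.4%), 2 higher and 6 lower. The next 5 Mb held 2 of 26 (7.69%), and the 5 Mb just before Mavs, with as many members as the first stretch, held 1 of 52 (1.92%). After Mavs the first 5 Mb held 5 of 16 (31.3%), the next held 0 of 8 and the last held 1 of 16 (6.25%). With the genes left out by name counted in, except Mavs, the shares before Mavs were higher. In the same order they were 9 of 54 (16.7%), 4 of 28 (14.3%) and 3 of 56 (5.36%). The following stretches were cut at neighbouring called members, so 0 calls inside them was fixed by the cut. Of the 46 members in the 7.65 Mb between Sqor and Pced1a, 9 had an unadjusted p below 0.05. That is 19.6%, against 16.0% of all genes tested. The counts of this stretch and the next are of members alone and leave out the genes left out by name. Between Plcb4 and Dstn lay 8.26 Mb with 10 members. No test was made of these shares, and stretches with fewer than 20 members give imprecise ones.

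The start regions of 3 members are printed because these genes carry the largest differences in each direction and the leading cell cycle difference. Each is 250 bases before to 50 bases after the annotated start, from RefSeq on GRCm38.p6, 5′ to 3′ on the gene's strand. Capitals mark matches, on either strand, to the cell cycle element TTTGAA, the CCAAT box (read as ATTGG on the other strand), and the E2F sites TTTCCCGC, TTTGGCGC or TTTCGCGC.
Spint1 (chr2:119237110-119237409, plus strand): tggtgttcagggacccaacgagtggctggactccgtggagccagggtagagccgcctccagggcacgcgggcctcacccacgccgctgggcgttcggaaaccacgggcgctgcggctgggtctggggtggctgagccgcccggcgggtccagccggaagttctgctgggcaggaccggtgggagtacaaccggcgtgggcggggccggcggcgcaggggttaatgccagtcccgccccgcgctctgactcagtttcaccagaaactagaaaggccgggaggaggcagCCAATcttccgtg
Tmem87a (chr2:120404067-120404366, minus strand): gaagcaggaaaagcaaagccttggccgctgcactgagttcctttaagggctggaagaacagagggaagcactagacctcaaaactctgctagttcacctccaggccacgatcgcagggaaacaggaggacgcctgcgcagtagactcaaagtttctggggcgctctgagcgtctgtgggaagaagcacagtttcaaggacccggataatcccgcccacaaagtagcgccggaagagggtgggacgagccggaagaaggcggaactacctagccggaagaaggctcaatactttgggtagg
Bub1b (chr2:118597961-118598260, plus strand): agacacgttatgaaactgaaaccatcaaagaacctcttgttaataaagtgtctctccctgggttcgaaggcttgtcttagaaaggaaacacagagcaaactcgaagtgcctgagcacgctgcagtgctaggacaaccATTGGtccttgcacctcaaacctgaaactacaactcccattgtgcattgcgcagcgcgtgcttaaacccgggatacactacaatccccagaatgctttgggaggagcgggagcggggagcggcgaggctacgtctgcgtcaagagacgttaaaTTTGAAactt
In the Bub1b window TTTGAA lay 41 bases after the start and the CCAAT box 113 bases before it. The Spint1 window had a CCAAT box 38 bases after the start, and the Tmem87a window had none of the marked motifs. A match is a description of the letters and not evidence of binding.

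The largest fall was that of Spint1 (chr2:119237362-119249527, 11.997 Mb before Mavs), which encodes a membrane-bound inhibitor of serine proteases such as matriptase and the activator of hepatocyte growth factor. It had 267, 314 and 229 CPM in the wild-type libraries (5416, 5876 and 4961 counts) and 1.57, 0 and 1.25 CPM in the knockout libraries (28, 0 and 17 counts). It was near 0 in all 3 knockout libraries and in none of the wild-type libraries, 287-fold lower by the group means (log2 fold change -8.12 with SE 0.46, edgeR adjusted p = 1.74e-05). It reached the level of 1 CPM through the wild-type libraries alone, so as a member it had to differ. Spint1 is known for its expression in epithelia, and markers of tumour epithelial cells were measured beside it. Of the 9 listed, 8 were in the table and 5 of these averaged below 1 CPM in both groups. Those 5 were Krt7, Krt8, Krt18, Krt19 and Cldn7. The summed level of the markers lay between 373 and 549 CPM across wild-type and between 426 and 684 CPM across knockout libraries. Nearly all of it was Cdh1, so the sum does not measure the list as a whole or the amount of tumour cell RNA. Epcam had 6.03 to 16.2 and 5.17 to 7.91 CPM, and Spint2, the related protease inhibitor, 7.58 to 11.8 and 7.04 to 9.59 CPM. None of these markers passed.

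Tmem87a (chr2:120355312-120404113, 10.9 Mb before Mavs), a Golgi membrane protein, showed the largest rise. It had 3.40, 5.07 and 3.04 CPM in the wild-type libraries and 70.5, 75.98 and 53.9 CPM in the knockout libraries, with no overlap. The group means differed 17.4-fold (log2 fold change 4.13 with SE 0.23, edgeR adjusted p = 1.74e-05). It shares 209 exonic bases with Ganc, a glucosidase gene on the opposite strand, which changed by 0.34 (SE 0.24, edgeR adjusted p = 0.571). Spint1 and Tmem87a were the only called members that passed in each of the 6 fits that left out 1 library.

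Of the 9 lower members, 6 lay in a stretch of 0.639 Mb that starts with Bub1b and ends with Spint1. The stretch was picked out after its values were seen. It holds 15 members, and the other 9 did not pass. The share called was 40%, against 2.81% of all genes tested, and was not tested. Log2 fold changes were negative for 10 and positive for 5, so genes in between, such as Rmdn3 at 0.42 and Chst14 at 0.30, stood above 0.

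Bub1b, the mitotic checkpoint kinase BubR1, had 36.3, 49.5 and 33.8 CPM in wild-type and 11.9, 17.3 and 13.9 CPM in knockout libraries. Every knockout library was below every wild-type library, and the means differed 2.78-fold (log2 fold change -1.48 with SE 0.20, edgeR adjusted p = 0.0110).

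Inafm2, a small membrane protein gene, had 8.92, 17.9 and 18.6 CPM in wild-type and 3.03, 4.56 and 4.47 CPM in knockout libraries. Wild-type replicate 1 was the lowest of its group and still above the highest knockout library (log2 fold change -1.92 with SE 0.32, edgeR adjusted p = 0.0171). Dnajc17, a J-domain protein linked to splicing, had 7.98, 7.05 and 6.86 CPM in wild-type and 2.58, 1.94 and 2.64 CPM in knockout libraries, a 3.06-fold difference (log2 fold change -1.61 with SE 0.28, edgeR adjusted p = 0.0219). Its neighbour Zfyve19, which encodes a FYVE-domain protein of the abscission checkpoint, had 37.1, 32.6 and 33.1 CPM in wild-type and 19.4, 15.3 and 20.3 CPM in knockout libraries. The knockout libraries of Zfyve19 stood at about the same level as one another and below all wild-type libraries (log2 fold change -0.90 with SE 0.16, edgeR adjusted p = 0.0219). Dnajc17 and Zfyve19 share 108 exonic bases on opposite strands.

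**Figure D2:**
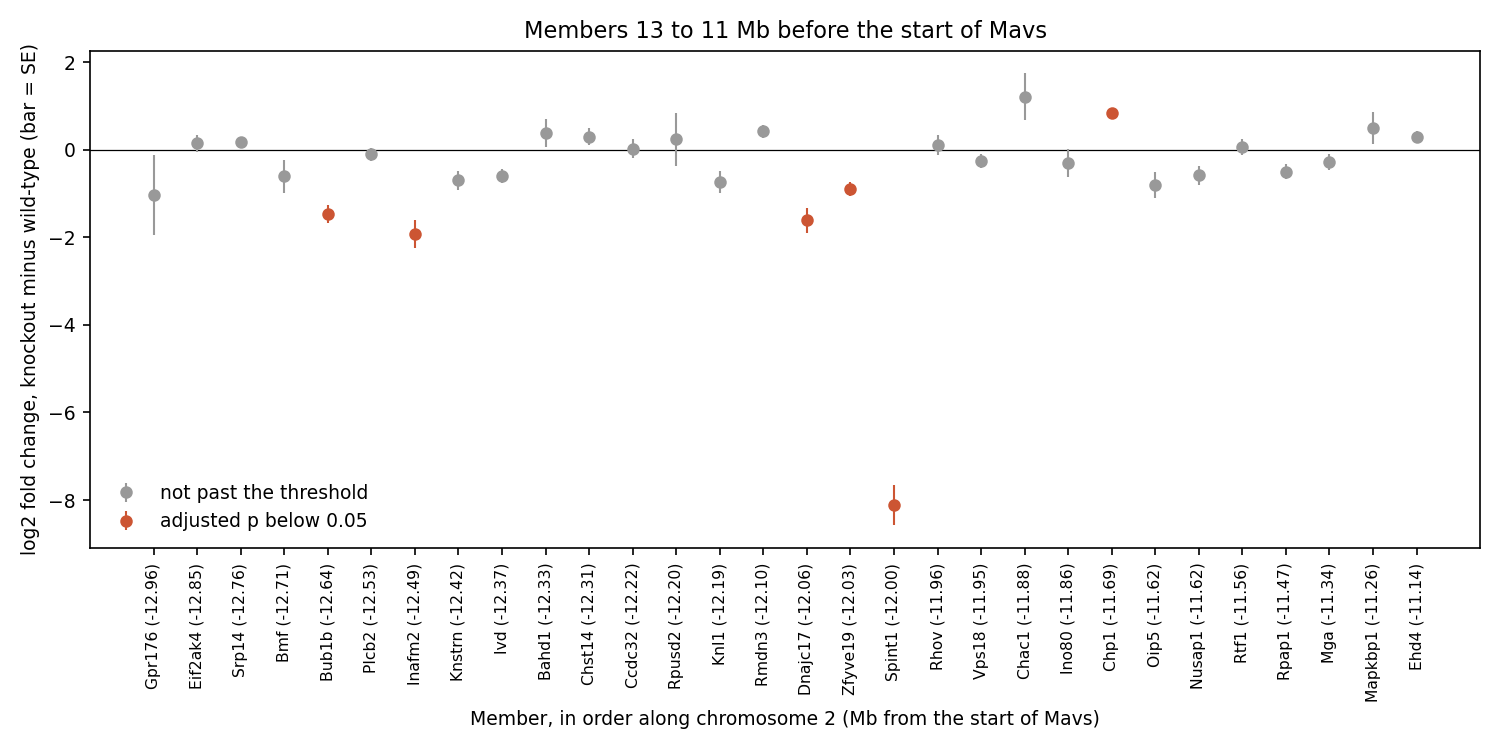
Log2 fold change (knockout minus wild-type) with SE bars for members 13 to 11 Mb before the start of Mavs, 1 left out, in order along the chromosome; red marks those past the threshold. Bub1b, Inafm2, Dnajc17, Zfyve19 and Spint1 lie below 0, Chp1 lies above, and members not past the threshold lie among them.

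Cell cycle genes of the window were the role list with the lowest median. Of 25 members listed under cell cycle and genome maintenance, 2 passed, both lower, Bub1b among them, 0 were higher and 23 did not pass. The median log2 fold change was -0.31, and 17 were negative. The share called was 8% here and 7.69% in the list of endosomal, lysosomal and secretory traffic. It was 16% in the metabolism list, 16% in the signalling list and 5.41% in the transcription list. Over all genes tested it was 2.81% and over all members 10%, and these shares were not tested. Pcna, the sliding clamp of DNA polymerase, had 162, 156 and 135 CPM in wild-type and 107, 90.6 and 114 CPM in knockout libraries, without overlap, and lay just outside the threshold (log2 fold change -0.54 with SE 0.12, edgeR adjusted p = 0.05004). Pcna passed with limma-voom (adjusted p = 0.0478), DESeq2 size factors, library size alone, the other filters on level, robust dispersion and the DESeq2 Wald test. It did not pass with the replicate block (edgeR adjusted p = 0.0674) or in any fit that left out 1 library. With the counts of its pseudogene copy added its log2 fold change was -0.31, without a call. Dut, the enzyme that removes dUTP before it enters DNA, had 31.4, 28.7 and 18.5 CPM in wild-type and 14.7, 17.6 and 14.4 CPM in knockout libraries. Its wild-type libraries spread widely and it did not pass (log2 fold change -0.75 with SE 0.21, edgeR adjusted p = 0.104).

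Proliferation genes on other chromosomes were measured beside the cell cycle members, with no test of the set. Of 16 such genes, picked after the values of the window were seen, 9 fell, 0 rose and 7 did not pass, and all 16 had negative log2 fold changes with a median of -0.81. Their summed level lay between 759 and 1175 CPM across wild-type and between 538 and 575 CPM across knockout libraries. Mcm2, a subunit of the replicative helicase on chromosome 6, changed by -1.06 (SE 0.18, edgeR adjusted p = 0.0175), and Top2a, the DNA topoisomerase of dividing cells on chromosome 11, by -0.96 (SE 0.20, edgeR adjusted p = 0.0327). The part of this shift in the values of Bub1b was not tested. The TTTGAA element lay in 16.13% of the start regions of cell cycle members, against 17.89% of all promoters in the table and 13.16% of all members with an entry. CCAAT boxes lay in 38.71%, 37.41% and 36.32% of the same 3 sets, and E2F sites in 6.452%, 1.845% and 2.632%. For the cell cycle members the E2F share rests on 2 of 31 start regions (Cenpb and Mcm8).

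**Figure D3:**
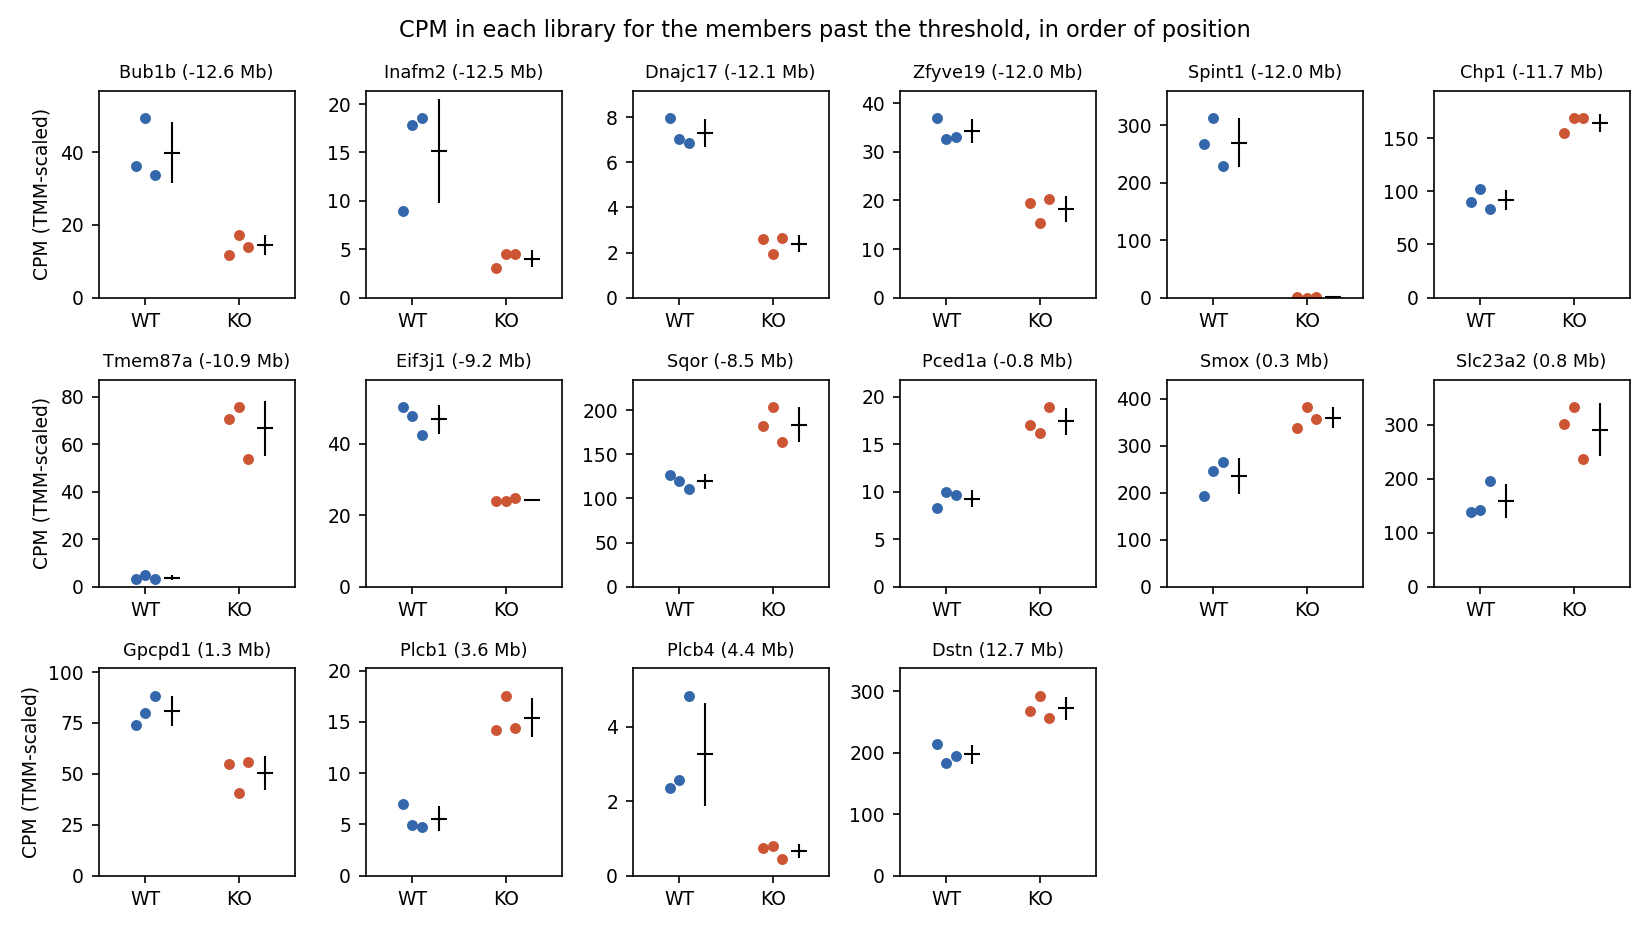
CPM (TMM-scaled, linear axis from 0) of called members in each library, 1 left out, with wild-type and knockout points side by side and a bar for the mean and SD of the 3 libraries; panels follow the order along the chromosome and give the distance from Mavs in Mb. The groups do not overlap in any panel, and the Spint1 and Tmem87a panels show 1 group near 0.

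Genes of endosomal, lysosomal and secretory traffic had the highest median of the lists. Of 26 members, Tmem87a rose, Zfyve19 fell and 24 did not pass, with 18 positive log2 fold changes and a median of 0.23. The groups did not overlap for 14 of the 26 (53.8%, against 21.8% of all genes tested and 33.5% of members), and no test was made of this share. Tmem230, a membrane protein of vesicles, had 47.7, 44.2 and 44.1 CPM in wild-type and 72.8, 70.3 and 56.8 CPM in knockout libraries and lay just outside the threshold (log2 fold change 0.56 with SE 0.13, edgeR adjusted p = 0.0522). Vps39, a subunit of the HOPS complex that tethers late endosomes to lysosomes, had 40.4, 42.8 and 50.03 CPM in wild-type and 65.4, 64.8 and 57.1 CPM in knockout libraries, without overlap (log2 fold change 0.49 with SE 0.13, edgeR adjusted p = 0.0805). Pdia3, a disulfide isomerase of the endoplasmic reticulum that also serves in loading of MHC class I, was the most abundant member per kilobase of exon (381 CPM per kilobase). It had 1503, 1175 and 1302 CPM in wild-type and 1072, 985 and 1086 CPM in knockout libraries, which did not overlap, and did not pass (log2 fold change -0.34 with SE 0.11, edgeR adjusted p = 0.145). When scaled by library size alone, its log2 fold change was -0.51 and it passed (edgeR adjusted p = 0.0295).

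Genes of metabolism and membrane transport numbered 25, of which 3 rose, 1 fell and 21 did not pass. The median log2 fold change was 0.05. Smox, the spermine oxidase of polyamine breakdown (0.257 Mb after Mavs), had 194, 246 and 266 CPM in wild-type and 339, 383 and 358 CPM in knockout libraries. The lowest knockout library was above the highest wild-type library, and the means differed 1.53-fold (log2 fold change 0.61 with SE 0.13, edgeR adjusted p = 0.0364). Slc23a2, a sodium-dependent transporter of ascorbate (0.818 Mb after Mavs), had 138, 142 and 196 CPM in wild-type and 301, 334 and 237 CPM in knockout libraries. Wild-type replicate 3 and knockout replicate 3 came closest to each other without overlap (log2 fold change 0.87 with SE 0.16, edgeR adjusted p = 0.0267).

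Sqor, the mitochondrial enzyme that oxidises sulfide, had 127, 120.1 and 111 CPM in wild-type and 182, 204 and 164 CPM in knockout libraries, with every knockout library higher (log2 fold change 0.62 with SE 0.12, edgeR adjusted p = 0.0261). Gpcpd1, which splits glycerophosphocholine and lies 1.30 Mb after Mavs, had 74.1, 80.03 and 88.5 CPM in wild-type and 54.6, 40.6 and 55.96 CPM in knockout libraries. It was the only called gene of this list that fell (log2 fold change -0.68 with SE 0.15, edgeR adjusted p = 0.0382). Scaled by library size alone, Smox and Sqor no longer passed, with log2 fold changes of 0.44 and 0.45; Slc23a2 and Gpcpd1 still did.

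The signalling, cell death and cell surface list held 25 members, of which 2 rose, 2 fell and 21 did not pass (median log2 fold change 0.10). It holds a neighbouring pair of phospholipase C beta genes, enzymes that cut a membrane phosphoinositide below G protein-coupled receptors, and these went in opposite directions. Plcb1 (3.55 Mb after Mavs) had 6.95, 4.91 and 4.74 CPM in wild-type and 14.2, 17.6 and 14.4 CPM in knockout libraries, a 2.78-fold rise (log2 fold change 1.48 with SE 0.23, edgeR adjusted p = 0.0164). Plcb4 (4.42 Mb after Mavs) had 2.37, 2.56 and 4.84 CPM in wild-type (48, 48 and 105 counts) and 0.730, 0.805 and 0.439 CPM in knockout libraries (13, 12 and 6 counts). It fell 4.95-fold by the means (log2 fold change -2.29 with SE 0.51, edgeR adjusted p = 0.0421), from low counts, and with limma-voom it did not pass (adjusted p = 0.101). Like Spint1 it reached 1 CPM through the wild-type libraries alone and had to differ to be a member. Plcb2, the member of the same family 12.5 Mb before Mavs, had 41.2, 36.1 and 45.8 CPM in wild-type and 37.2, 33.6 and 44.02 CPM in knockout libraries. The Plcb2 groups overlapped (log2 fold change -0.10 with SE 0.15, edgeR adjusted p = 0.821).

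Dstn, an actin-depolymerising protein 12.7 Mb after Mavs, had 214, 183 and 194 CPM in wild-type and 267, 293 and 256 CPM in knockout libraries. It was the called member furthest after Mavs and the closest to the threshold (log2 fold change 0.47 with SE 0.11, edgeR adjusted p = 0.0482). With DESeq2 size factors in the same fit its adjusted p was 0.0511. Prnp, the prion protein gene 0.676 Mb after Mavs, had 8.92, 7.26 and 8.48 CPM in wild-type and 13.7, 17.9 and 11.4 CPM in knockout libraries, without overlap, and did not pass (log2 fold change 0.80 with SE 0.22, edgeR adjusted p = 0.0976).

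Genes of transcription, RNA processing and translation made up the largest list, with 37 members. Of these 2 fell (Dnajc17, and Eif3j1, whose call was lost once its copy was counted with it), 0 rose and 35 did not pass; 26 log2 fold changes were negative, with a median of -0.18. Polr1b, a subunit of RNA polymerase I, had 16.96, 18.5 and 15.9 CPM in wild-type and 12.02, 7.38 and 12.5 CPM in knockout libraries and did not pass (log2 fold change -0.69 with SE 0.22, edgeR adjusted p = 0.155). Snrpb, a core protein of spliceosomal particles at 139 CPM per kilobase of exon, had 329, 288 and 257 CPM in wild-type and 244, 249 and 266 CPM in knockout libraries, which overlapped (log2 fold change -0.20 with SE 0.11, edgeR adjusted p = 0.440).

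The other 32 members are in none of the lists. Of these 2 rose, 1 fell (Inafm2) and 29 did not pass, with a median log2 fold change of 0.11. Chp1, a calcium-binding partner of sodium-proton exchangers (11.7 Mb before Mavs), had 89.5, 102 and 83.2 CPM in wild-type and 155, 169 and 169 CPM in knockout libraries. The knockout libraries lay close together and all were above the wild-type libraries (log2 fold change 0.85 with SE 0.11, edgeR adjusted p = 0.0107). Pced1a (0.817 Mb before Mavs) had 8.28, 9.93 and 9.63 CPM in wild-type and 17.1, 16.2 and 18.97 CPM in knockout libraries, a 1.88-fold rise (log2 fold change 0.91 with SE 0.18, edgeR adjusted p = 0.0327). Its call was lost when libraries were scaled by size alone, at a log2 fold change of 0.74. Pced1a shares 109 exonic bases with Vps16 on the opposite strand, which changed by -0.28 (SE 0.15, edgeR adjusted p = 0.416).

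**Figure D4:**
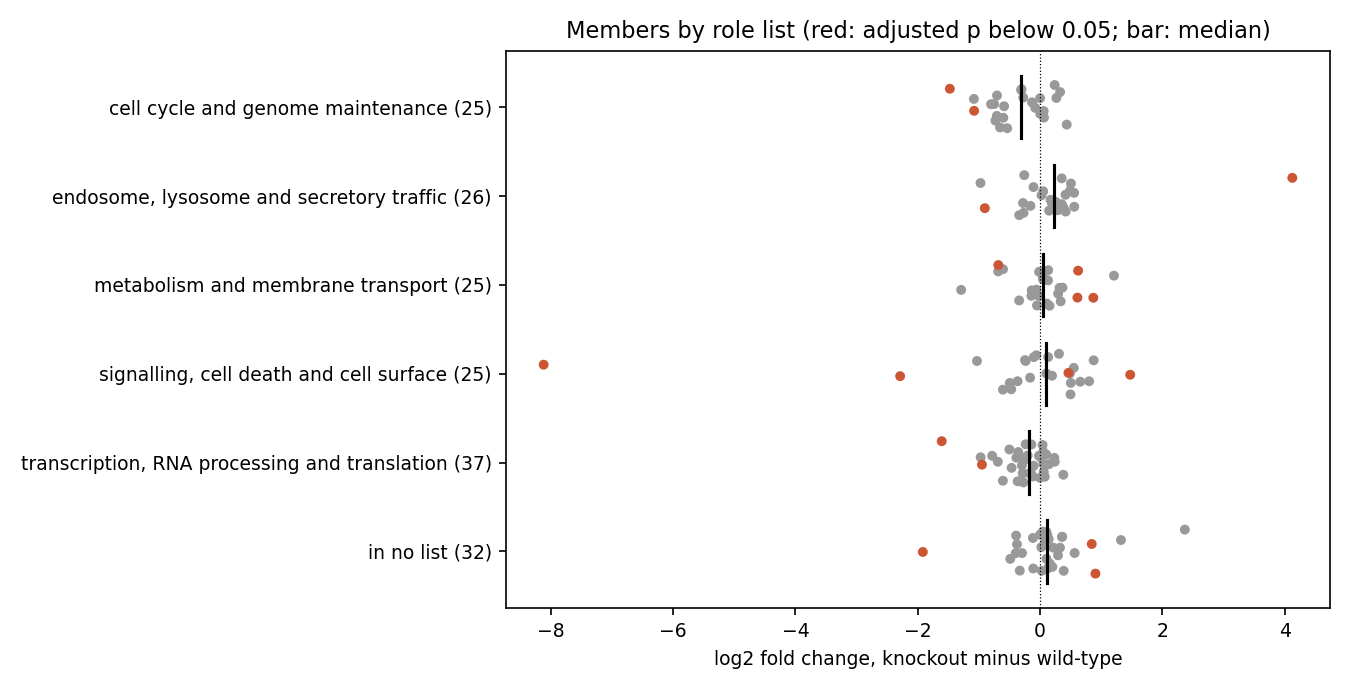
Log2 fold change (knockout minus wild-type, horizontal axis) of each member by role list, with members past the threshold in red and the median of each list as a black bar; vertical jitter within a list carries no value. Medians run from -0.31 for the cell cycle list to 0.23 for the endosome and secretory list, and most points lie within 1 of 0.

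Leaving out 1 library at a time showed how far each call rests on 3 libraries a group. Chp1 passed in 5 of the 6 fits and was lost without knockout replicate 3 (edgeR adjusted p = 0.0628). Bub1b and Eif3j1 passed in 4 and were lost without knockout replicate 1 or 3, with edgeR adjusted p of 0.0505 and 0.0636 for Bub1b and 0.0515 and 0.0611 for Eif3j1. Inafm2, Zfyve19 and Plcb1 passed whichever wild-type library was left out and failed whichever knockout library was left out, where the edgeR adjusted p lay between 0.0515 and 0.0846. Dnajc17 passed without wild-type replicate 2 or 3, and Sqor without wild-type replicate 1. Smox and Slc23a2 passed without wild-type replicate 3 and in no other such fit. Pced1a, Gpcpd1, Plcb4 and Dstn passed in none, with edgeR adjusted p between 0.0502 and 0.200. The direction of each of the 17 was the same in all 6 fits.

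Members that missed the adjusted threshold include genes known for work in antigen-presenting cells, named here after their values were seen. Sppl2a, the intramembrane protease that clears the invariant chain stub of MHC class II, had 147, 90.3 and 112 CPM in wild-type and 150.3, 195 and 169.8 CPM in knockout libraries (log2 fold change 0.56 with SE 0.17, edgeR adjusted p = 0.132). Bcl2l11, which encodes the cell death protein BIM, had 41.3, 32.8 and 45.8 CPM in wild-type and 52.3, 58.01 and 59.9 CPM in knockout libraries (log2 fold change 0.50 with SE 0.15, edgeR adjusted p = 0.111). Mertk, a receptor for dying cells on macrophages, had 33.6, 28.99 and 25.2 CPM in wild-type and 44.9, 34.5 and 29.3 CPM in knockout libraries (log2 fold change 0.31 with SE 0.18, edgeR adjusted p = 0.471). None of the 3 passed; the groups did not overlap for Sppl2a or Bcl2l11 and overlapped for Mertk. Jag1, a ligand of Notch receptors, had 5.27, 8.44 and 9.07 CPM in wild-type and 11.5, 15.2 and 15.2 CPM in knockout libraries (log2 fold change 0.88 with SE 0.25, edgeR adjusted p = 0.106). Snx5, a sorting nexin of endosomes, had 202, 164 and 191 CPM in wild-type and 254, 231 and 261 CPM in knockout libraries (log2 fold change 0.42 with SE 0.11, edgeR adjusted p = 0.0866). Ivd, the mitochondrial enzyme of leucine breakdown, had 20.9, 22.9 and 22.7 CPM in wild-type and 15.1, 14.2 and 14.5 CPM in knockout libraries (log2 fold change -0.61 with SE 0.16, edgeR adjusted p = 0.0718). Of these 3, Jag1 and Snx5 were higher and Ivd was lower in the knockout mean, and none passed. In the cell cycle list the kinetochore genes Knstrn (-0.70, SE 0.21) and Knl1 (-0.73, SE 0.25), the spindle genes Nusap1 (-0.59, SE 0.22) and Ckap2l (-0.71, SE 0.25) and the helicase Mcm8 (-1.08, SE 0.44) had negative log2 fold changes without a call.

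Within 1 Mb of Mavs lay 24 members, of which 3 passed (Pced1a, Smox and Slc23a2), all higher. That is 12.5%, against 2.81% of all genes tested, and the share was not tested. None of the 3 reached 2-fold, and Pced1a and Smox were not called with library size alone. The 4 nearest starts before Mavs were those of 1700037H04Rik, Cenpb, Cdc25b and Ap5s1, between 0.088 and 0.027 Mb away. 1700037H04Rik had 29.4, 28.3 and 28.8 CPM in wild-type and 33.98, 36.4 and 35.7 CPM in knockout libraries; all knockout libraries were higher, but it did not pass (log2 fold change 0.29 with SE 0.13, edgeR adjusted p = 0.298). Cenpb, the centromere protein that binds satellite DNA, changed by 0.27 (SE 0.17, edgeR adjusted p = 0.523). Cdc25b, a phosphatase that activates cyclin-dependent kinases, changed by 0.24 (SE 0.21, edgeR adjusted p = 0.657). Ap5s1, a subunit of an endosomal adaptor, changed by 0.29 (SE 0.17, edgeR adjusted p = 0.455). The 4 nearest after Mavs were Pank2, Rnf24, Smox and Prnp. Pank2, the mitochondrial pantothenate kinase, starts 0.0284 Mb from the start of Mavs and changed by 0.15 (SE 0.18, edgeR adjusted p = 0.769), with a 95% interval of -0.25 to 0.56. Rnf24, a RING finger gene, changed by -0.16 (SE 0.35, edgeR adjusted p = 0.880), with a 95% interval of -0.93 to 0.60. Of these 8 neighbours Smox alone passed.

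Members share near-identical sequence with 12 genes of the table that are not members. For 7 of these copies the CPM of the groups overlapped, with at most 20 counts in any library. Knockout libraries were all higher for the other 5: Eif3j2, Pcna-ps2, Gm14085, Gm3650 and Gm7984, of which Gm7984 had 3, 3 and 3 counts in wild-type and 3, 4 and 3 counts in knockout libraries. Eif3j1, which encodes a subunit of translation initiation factor 3, had 50.4, 47.7 and 42.5 CPM in wild-type and 24.04, 24.1 and 24.7 CPM in knockout libraries. It counted among the 9 lower members (log2 fold change -0.95 with SE 0.13, edgeR adjusted p = 0.0110). Its copy Eif3j2 on another chromosome, identical at 99.41% of 2379 aligned bases, had 7, 10 and 19 counts in wild-type and 314, 277 and 278 counts in knockout libraries, so the copy was higher where Eif3j1 was lower (log2 fold change 4.98 with SE 0.32, edgeR adjusted p = 4.03e-05). The copy took between 0.680% and 2.02% of the pair's counts across wild-type libraries and between 42.3% and 45.2% across knockout libraries. With both counted as 1 gene the difference shrank to -0.14 on the log2 scale (SE 0.12, edgeR adjusted p = 0.667) and the call was lost. Eif3j1 also shares 1107 exonic bases with Spg11 on the opposite strand. Spg11, which encodes spatacsin of lysosome reformation, changed by -0.97 (SE 0.27, edgeR adjusted p = 0.0953). The Spg11 copy Gm3650, which lies beside Eif3j2, had 0, 1 and 0 counts in wild-type and 5, 11 and 18 counts in knockout libraries.

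Pcna and a processed pseudogene showed a similar pair of changes. Pcna-ps2 on chromosome 19 had 19, 15 and 17 counts in wild-type and 329, 229 and 298 counts in knockout libraries (log2 fold change 4.45 with SE 0.27, edgeR adjusted p = 2.35e-05). Its share of the pair lay between 0.512% and 0.579% across wild-type libraries and between 14.5% and 16.1% across knockout libraries. Summed with its copy, Pcna differed by -0.31 on the log2 scale (SE 0.13, edgeR adjusted p = 0.262). The pseudogene matches the Pcna coding sequence at 99.23% of 781 bases. The reference sequences differ by 6 substitutions, A144G, A177C, G424A, A586G, G618T and G699A, written as the base of Pcna, its position counted from 1 at the start of the Pcna coding sequence, and the base of Pcna-ps2. A stretch of 90 bases around the first 2 is printed to show how little separates the copies, with the differing bases in capitals (GRCm38, 5′ to 3′ along the coding sequence).
Pcna (chr2:132252860-132252949, minus strand): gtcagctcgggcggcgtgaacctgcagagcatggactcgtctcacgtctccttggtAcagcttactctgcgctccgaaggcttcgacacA
Pcna-ps2 (chr19:9283466-9283555, plus strand): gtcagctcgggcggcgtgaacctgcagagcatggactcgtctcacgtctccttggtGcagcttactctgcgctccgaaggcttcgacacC

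Within the matching bases, a read that covers none of the 6 differences aligns equally well to both places in the reference. Whether the knockout hosts carry other bases at these positions cannot be read from gene counts. Slc28a2, a nucleoside transporter gene, had its copy Gm14085 on chromosome 2 at 0, 0 and 0 counts in wild-type and 12, 17 and 7 counts in knockout libraries. Summed, the pair had a log2 fold change of -0.96 (edgeR adjusted p = 0.384). The splicing factor genes Mfap1a and Mfap1b, both members, are identical over their 1317 coding bases. Mfap1a had 211, 266 and 250 counts in wild-type and 317, 160 and 192 counts in knockout libraries, and Mfap1b had 155, 217 and 248 and 103, 94 and 78. Mfap1b alone changed by -0.78 (SE 0.24, edgeR adjusted p = 0.136), and the sum of both by -0.14 (edgeR adjusted p = 0.799). In all, 14 members have a near-identical copy in the table and 57 share exonic bases with another gene of the table. Of the 104 members with neither, 10 passed (9.62%).

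**Figure D5:**
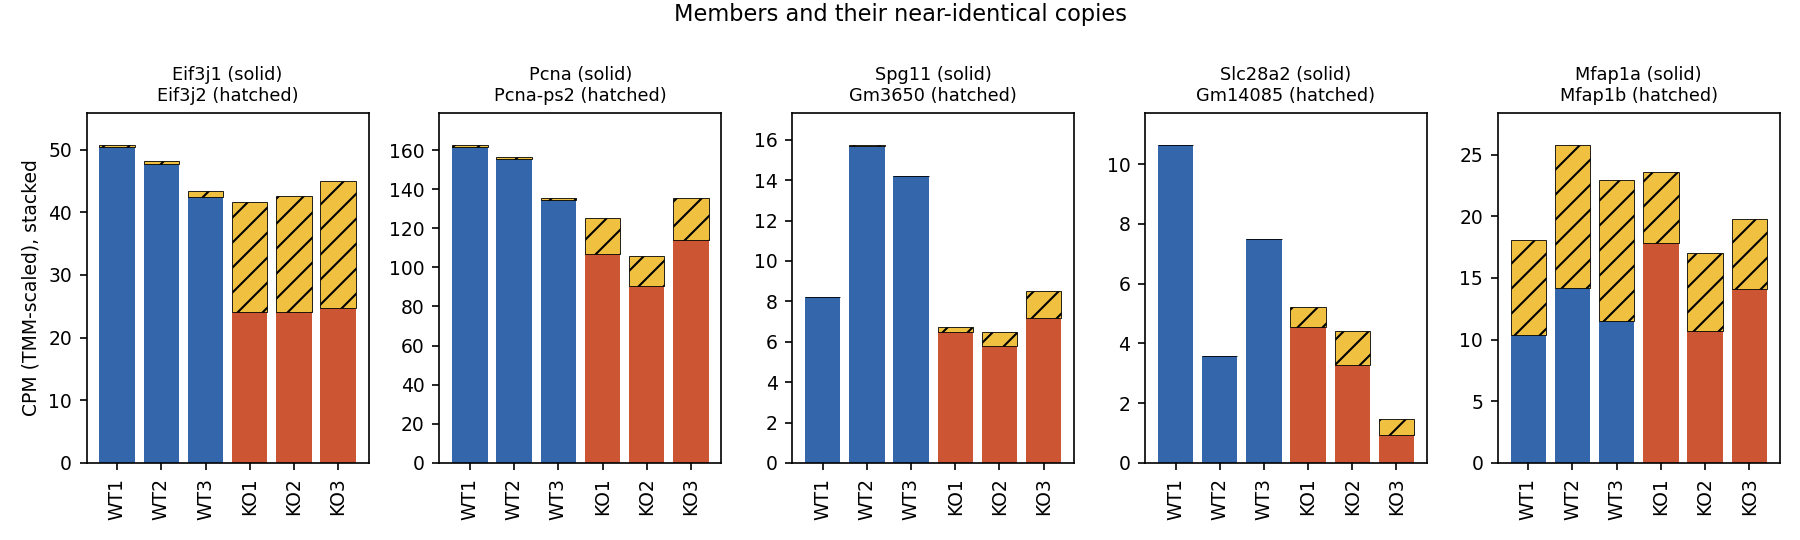
Stacked CPM (TMM-scaled, linear axis from 0) in each library for members (solid) and their near-identical copies (hatched), with wild-type libraries on the left and knockout libraries on the right of each panel. The hatched part is near 0 in wild-type libraries for Eif3j2 and Pcna-ps2 and visible in all 3 knockout libraries.

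The start regions of the members were described by features that the rule did not name. Whether these features follow from its demand for protein-coding genes of at least 1 CPM was not tested. Of the 170, 159 had a RefSeq start region in the table, with 190 regions in all, and 11 did not. The median GC content of these regions was 61.33%, against 52.67% over all promoters. A GC box (GGGCGG, either strand) lay in 65.26% of members' regions and in 35.66% of all, and a TATAAA box in 2.632% and 13.62%. The table of all promoters is not limited to genes measured in these cells, and no test was made of these shares. The interferon-stimulated response element lay in 3.158% of members' regions and 3.443% of all. Among the called members it was found for Bub1b, at 239 bases before the start, and for Sqor.

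The bounds of the rule fell as follows. Just outside the level of 1 CPM were Zc3h6 at 0.895 and Hypk at 0.943 CPM, and just inside were Lzts3 at 1.20 and Gm10762 at 1.25 CPM. Gm10762 changed by -0.49 (SE 0.58, edgeR adjusted p = 0.768) and Lzts3 by 0.13 (SE 0.71, edgeR adjusted p = 0.958), both from fewer than 50 counts a library. The first and last members of the window were Spred1 at 14.1 Mb before and Crnkl1 at 14.7 Mb after Mavs, and the next genes outside were BC052040 and Ralgapa2. Ovol2 reached 1 CPM through the knockout libraries alone, and Gpr176, Spint1, Gm10762 and Plcb4 through the wild-type libraries alone, so these 5 could pass the level only where they were high. Ovol2, a zinc-finger transcription factor of epithelia, changed by 2.37 (SE 0.69, edgeR adjusted p = 0.108).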

How the data were processed

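The data are whole-transcript RNA sequencing of 6 libraries. The values are raw counts of reads per gene, which the authors deposited as whole numbers in 1 table. The submitters' processing notes name mm10, HISAT2 (also HISAT), HTSeq and DESeq2, with no role; the library kit was TruePrep, per the labels' protocols. No source used here gives the annotation release or the strand setting. Whether reads of overlapping or near-identical genes were given to either gene or left uncounted is not known.

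Gene positions, types and symbols came from the GRCm38 annotation, which matched 26383 of 26519 rows. Membership used CPM, the count divided by the library total. Counts were tested in edgeR 4.0.16 (R 4.3.3) by its quasi-likelihood test without covariates, after TMM scaling, on the 12580 genes that filterByExpr kept (a minimum count of 10 and a total of 15). Adjusted p-values follow Benjamini and Hochberg, and members below 0.05 are called. CPM in the text are TMM-scaled unless they describe the rule. A negative log2 fold change means lower in knockout libraries.

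Near-identical copies were transcripts with at least 300 bases aligned at 98% identity or more; counts were summed for pairs aligned over at least 40% of either transcript. Alternatives were DESeq2 1.42.0 size factors or Wald test, library size alone, limma-voom (limma 3.58.1), other filters and windows, a replicate block and leaving out each library; leaving out members with copies or shared exons, including the genes left out by name, and asking for 1 CPM in both groups, were added after the data were seen.

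The members, role lists and tests were chosen with earlier results of these data known. Named are Mavs, every called member but 1, which is not reported here, the 4 nearest members on each side of Mavs, the 5 most abundant, up to 4 of each role list with the smallest p, the 2 on each side of the level of 1 CPM, and copies. Sppl2a, Bcl2l11, Mertk, Jag1, Snx5, Ivd, Knstrn, Knl1, Nusap1, Ckap2l, Mcm8, Plcb2, Ovol2, Rmdn3, Chst14, Spg11, Slc28a2, Ganc and Vps16 were named after their values were seen. Libraries were checked for duplicates: within a group chi-square per degree of freedom was 14.9 or more. The procedure was tested on simulated data.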

Additional observations from a re-analysis of the deposited data

How the results depend on the processing

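The count of 17 called members held within 1.5 times under DESeq2 size factors (17), limma-voom (17) and robust dispersion (18). Over all genes tested 2.77%, 2.54% and 2.79% passed in these fits. A minimum mean of 5 CPM also gave 17, of 141 members tested (12.1%, against 4.68% of all genes tested). Dnajc17 and Plcb4 were not tested there, and Pcna and Tmem230 passed. Scaling by library size alone gave 19 (11.2%, against 3.52% of all genes tested), with 4 higher and 15 lower. It shifted the median log2 fold change of all genes to -0.17, and the calls of Sqor, Pced1a, Smox and Dstn were lost. With no filter on low counts 31 passed (17 higher, 14 lower), which is 18.2%, against 3.48% of all genes tested. With the DESeq2 Wald test 29 passed (16 higher), which is 17.1%, against 6.14% of all genes tested. Adding a 2-fold minimum left 8, of which 2 were higher. Leaving out 1 library gave 2 to 13 calls in all, 1 to 6 higher and 1 to 7 lower. In these fits 0.274% to 2.16% of all genes tested passed. Of the 17 calls, 9 were kept without wild-type replicate 1, 9 without wild-type replicate 2 and 11 without wild-type replicate 3. Without knockout replicates 1, 2 and 3, 3, 5 and 2 were kept, and calls over all genes fell to 39, 64 and 36. The cause was not tested beyond the smaller number of samples.

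The labels do not say whether replicate numbers pair the samples. Correlations of deviations between same-numbered libraries were 0.0255, 0.119 and -0.0215, against -0.142 to 0.136 between libraries of different numbers. These values show no sign of pairing and cannot exclude it. With the replicate block 15 members passed (7 higher, 8 lower), without Plcb4 and Dstn. That is 8.82%, against 3.29% of all genes tested.

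The share of called members was 8.82%, 7.84% and 8.96% in windows of 5, 10 and 20 Mb, and 10.6% at a minimum of 5 CPM. With the genes left out by name included it was 12.8% (23 of 180), a count that holds Mavs itself. Signs of log2 fold changes turned, all without a call. Leaving out 1 library gave -0.0203 to 0.242 for Pank2 (negative without knockout replicate 2), -0.390 to 0.269 for Rnf24 (positive without wild-type replicate 2), -0.788 to 0.0184 for Gm10762 (positive without wild-type replicate 1) and -0.576 to 0.580 for Lzts3 (negative without wild-type replicate 1, at -0.215, or without the third knockout library). With library size alone Pank2 was at -0.0174 and Lzts3 at -0.0348, with limma-voom Lzts3 was at -0.0999, and with its copy summed Mfap1a was at -0.143. The cause was not tested.

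Depth limits the low members: Plcb4 and Spint1 in knockout libraries rest on fewer than 30 counts each.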
